A study of Mus musculus with 44 samples.

Results

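The genes described here, 10 of those counted in this RNA sequencing experiment, encode the enzymes that write and erase DNA methylation and the 3 proteins of the Gadd45 family. They were chosen by symbol: Gadd45a, Gadd45b, Gadd45g, Tet1, Tet2, Tet3, Dnmt1, Dnmt3a, Dnmt3b and Tdg, out of 27179 genes in the files, each matched by its Entrez identifier. Libraries came from dorsal hippocampus, 1 mouse per library, and 36 libraries were used. The other 8 samples of the series, naive mice labelled cohort 1, had no counts here and were left out. WT mice were compared with mice homozygous for the ΔARID allele of Kdm5b (labelled Kdm5bDARID/DARID, here called mutant), which lack demethylase activity of the histone H3 lysine 4 demethylase KDM5B in every cell from conception. The paper also reports that total KDM5B protein appeared reduced in these mutants. Naive mice taken from the home cage (0 h) were compared with mice culled 1 h or 3 h after contextual fear conditioning, a single training session in which a chamber is paired with foot shocks. Each of the 6 groups held 6 mice, 3 labelled male and 3 labelled female. Both genotypes were second-generation offspring of a cross between C57BL/6J ΔARID males and 129S2/Sv females, so the strain background was mixed in all groups. Mice were 7 to 8 weeks old at sampling.

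DNMT1 copies methylation to new DNA strands, while DNMT3A and DNMT3B place it at new sites. TET1, TET2 and TET3 oxidise 5-methylcytosine, and thymine DNA glycosylase, the product of Tdg, cuts out the oxidised bases so that base excision repair can restore cytosine. GADD45 proteins are small stress and growth arrest proteins that bind the kinase MAP3K4 and cell cycle regulators, and they have been tied to active demethylation. Gadd45b is known as an activity-regulated gene of hippocampal neurons, and Gadd45a as a target of p53.

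The promoters of the Gadd45 genes are shown because, of the 10 genes, edgeR with all libraries called Gadd45b and Gadd45g alone. Gadd45a, their paralog, had no call. Each line gives the 250 bases before the RefSeq start site on the GRCm38.p6 build, 5′ to 3′ on the strand of the gene. Capitals mark matches on either strand to the octamer ATTTGCAT, the CCAAT box CCAAT, the E-box CACGTG and the TATA motif TATAAA.
Gadd45a (chr6:67037408-67037657, minus strand): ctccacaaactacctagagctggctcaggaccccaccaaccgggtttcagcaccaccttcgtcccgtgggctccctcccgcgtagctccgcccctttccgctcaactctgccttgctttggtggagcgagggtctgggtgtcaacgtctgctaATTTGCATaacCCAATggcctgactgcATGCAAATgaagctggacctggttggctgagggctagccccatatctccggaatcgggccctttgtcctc
Gadd45b (chr10:80929841-80930090, plus strand): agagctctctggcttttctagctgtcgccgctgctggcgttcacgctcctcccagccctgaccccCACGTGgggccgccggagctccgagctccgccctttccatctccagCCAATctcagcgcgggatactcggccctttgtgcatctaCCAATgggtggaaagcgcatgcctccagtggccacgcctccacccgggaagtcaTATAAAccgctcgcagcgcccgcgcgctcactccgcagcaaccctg
Gadd45g (chr13:51846425-51846674, plus strand): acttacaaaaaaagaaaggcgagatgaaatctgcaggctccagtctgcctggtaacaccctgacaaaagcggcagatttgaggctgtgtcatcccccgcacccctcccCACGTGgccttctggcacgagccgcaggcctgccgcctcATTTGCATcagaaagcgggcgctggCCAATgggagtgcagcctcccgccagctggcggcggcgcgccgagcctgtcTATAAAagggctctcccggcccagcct

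Counted from the start site, the Gadd45a window held the octamer at -97 and, on the other strand, at -70, with a CCAAT box at -86. The Gadd45g window held 1 octamer at -103, with an E-box at -142, a CCAAT box at -78 and a TATA motif at -27. The Gadd45b window held no octamer, and had an E-box at -185, CCAAT boxes at -139 and -100 and a TATA motif at -46. Of the 32851 RefSeq windows of this length, 1.60% held the octamer, 33.85% a CCAAT box, 6.02% the E-box and 12.4% the TATA motif. None of the 3 windows held the cAMP response element TGACGTCA (1.55% of windows), the shorter TGACG that this element contains (17.8%), the AP-1 site TGANTCA (6.75%) or a CArG box (1.47%). The Tdg window held a cAMP response element, at -135.

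Library totals ran from 40274435 to 107000233 counts, and their median was highest in WT at 3 h (81589026, against 61390777 to 66925015 in the other groups). For 2 libraries the Xist and Y-linked transcripts went against the labelled sex. With 51186 Xist counts and 0 from Y-linked genes, WT 1 h male 1 was one of them, and its summed level of 8 activity-regulated genes (Fos, Fosb, Npas4, Arc, Egr1, Egr2, Egr3 and Nr4a1) was 375.7 CPM (counts scaled to library size), inside the naive WT range of 361 to 540. The other, mutant 3 h female 2, had 36 Xist counts and 10239 from Y-linked genes, and its summed activity-regulated level was 954 CPM, against 660.7 to 940.9 in mutants at 1 h and 307.3 to 491.5 in the other 5 mutants at 3 h. Each thus had the transcripts of the sex on the other's label, and whether they were exchanged was not tested. Both stay under their labels here, and the main results that they move are given with and without them. Choroid plexus markers summed to between 41.5 and 7780 CPM among the libraries, with Kcne2 as low as 0.0834 CPM, and the group medians of this sum ran from 118.8 (mutant, 1 h) to 2140 CPM (WT, 3 h). The markers of CA1, CA3 and dentate granule cells were present in every library. The summed level of the 4 dentate granule markers had medians of 305.3, 357.2 and 363.0 CPM at 0, 1 and 3 h in WT and 310.3, 365.2 and 390.7 in mutants, and none of the 4 was called between times. The part of the choroid plexus and dentate granule levels in the results below was not tested. Kdm5b itself was at 86.5 ± 2.84 CPM in naive WT mice and 80.5 ± 3.96 in naive mutants (SD, n = 6 each), which does not check the genotype, since a count over the whole gene does not show the removed segment. Each mouse gave 1 library, and in bulk tissue a smaller number of cells of a type and less RNA per cell cannot be told apart.

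All 10 genes passed the filter on low counts in every comparison. Levels in this text are CPM scaled by trimmed mean of M values (TMM), and comparisons between genes use CPM per kilobase of annotated exon. On that scale Gadd45g was highest over the 36 libraries, at 14.2 ± 2.79 (mean ± SD). Dnmt1 followed at 7.69 ± 0.429, then Gadd45b at 7.44 ± 1.72, Dnmt3a at 5.76 ± 0.472 and Tet3 at 5.20 ± 0.397. Tet2 was at 2.63 ± 0.247, Tdg at 2.51 ± 1.52, Gadd45a at 1.353 ± 0.256, Tet1 at 1.12 ± 0.132 and Dnmt3b at 0.211 ± 0.0446. In 6 of the 9 neighbouring pairs of this order the ranges of 1 SD overlapped. The steps from Gadd45g to Dnmt1, from Tet3 to Tet2 and from Tet1 to Dnmt3b were the exceptions. Taking the longest transcript as the length moved Dnmt3a above Dnmt1 and Gadd45b, and left the other places as they were.

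**Figure D1:**
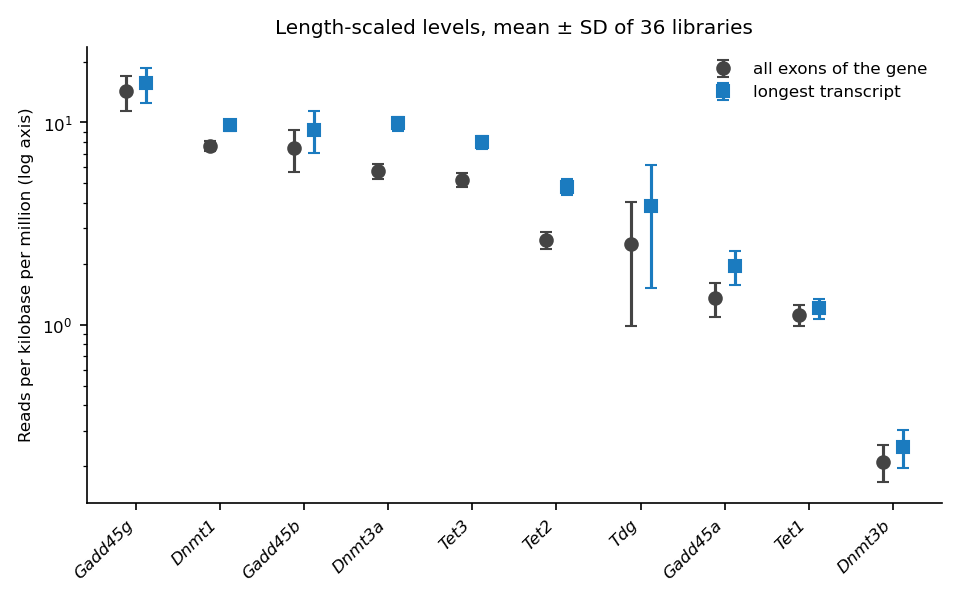
Level of each gene per kilobase on a log axis, mean ± SD of 36 libraries, with all annotated exons (circles) or the longest transcript (squares) as the length. Gadd45g is highest on both lengths and Dnmt3b lowest, with Dnmt3b resting on 38 to 118 counts per library.

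With all annotated exons as the length, 1 gene of each family held most of the per-kilobase level in naive WT mice. Gadd45g made up 60.7% ± 3.84 of the Gadd45 sum, Gadd45b 31.9% ± 3.28 and Gadd45a 7.41% ± 0.931 (SD, n = 6). Tet3 made up 57.7% ± 2.29 of the Tet sum, with Tet2 at 29.1% ± 1.53 and Tet1 at 13.3% ± 0.987. Dnmt1 made up 55.6% ± 2.86 of the Dnmt sum, Dnmt3a 42.8% ± 2.84 and Dnmt3b 1.59% ± 0.345. The place of Dnmt1 depends on the length used. With the longest transcript Dnmt3a was at 9.89 ± 0.812 and Dnmt1 at 9.67 ± 0.540 over the 36 libraries. In naive mutants Gadd45g was at 63.8% ± 2.48, Tet3 at 56.9% ± 1.51 and Dnmt1 at 57.0% ± 2.01. Relative spread between libraries was lowest for Dnmt1, whose SD over the 36 libraries was 5.58% of its mean, and highest for Tdg at 60.6%.

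**Figure D2:**
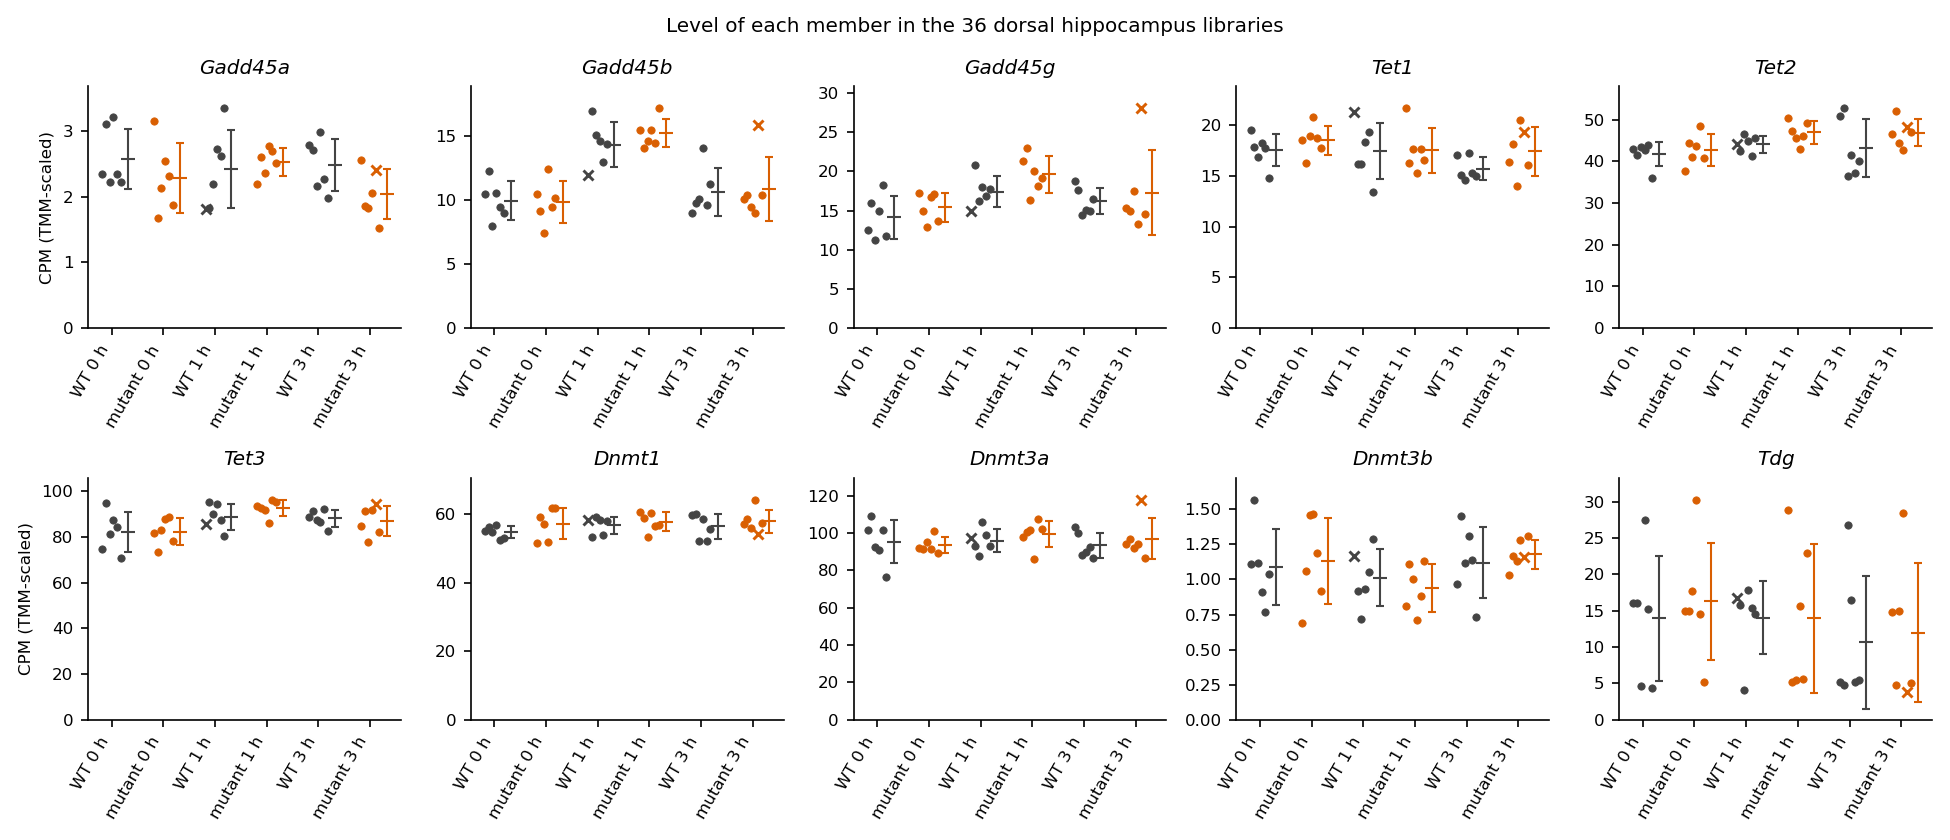
CPM of each gene in the 36 libraries, WT in grey and mutant in orange, with the mean ± SD of each group of 6 beside the points. Crosses mark the 2 libraries whose transcripts go against their sex label. Gadd45b is highest at 1 h in both genotypes, with all 6 mutant libraries at 14.1 CPM or above, and Tdg falls into separate ranges that do not follow the groups.

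The first question was how these genes moved after training. Gadd45b was the gene with the clearest change: 1 h after conditioning it rose over both genotypes together and in mutants alone, and at 3 h its level was again near that of naive mice. In WT mice its level ran from 7.95 to 12.3 CPM at 0 h (median 9.999), from 12.04 to 17.0 at 1 h (median 14.5) and from 9.02 to 14.1 at 3 h (median 9.92). In mutants it ran from 7.40 to 12.4 at 0 h (median 9.82), from 14.1 to 17.2 at 1 h (median 15.1) and from 8.98 to 15.9 at 3 h (median 10.2). The mutant 1 h and 0 h groups did not overlap, which was the case in this direction for 1.02% of genes. In WT the 1 h library of discordant sex, at 12.04 CPM, was the only one of 6 below the highest naive library, and a full separation in this direction was seen for 0.165% of genes. Of the 12 libraries taken at 1 h, 12 lay above the mean of the naive libraries. Under both sex labels the mean was higher at 1 h, with 14.7 against 10.3 CPM in WT libraries labelled male (16.04 without the library of discordant sex, n = 2) and 14.0 against 9.67 in those labelled female, and 14.8 against 9.04 and 15.8 against 10.7 in mutant males and females.

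Fold changes were tested with edgeR's quasi-likelihood test, with sex as a covariate and Benjamini-Hochberg adjustment over all genes tested, and a gene is called when its adjusted p is under 0.05. The standard error (SE) of each log2 fold change was derived from the F statistic. In mutants the log2 fold change of Gadd45b was 0.63 (SE 0.09, adjusted p = 0.00966, edgeR), a 1.55-fold rise and the only one of the 10 genes called in that comparison. In that comparison 54 of 17282 genes were called (0.312%). In WT the log2 fold change was 0.52 (SE 0.11, unadjusted p = 0.000287, adjusted p = 0.922, edgeR), where 0% of 17319 genes were called, although 928 had an unadjusted p under 0.05. DESeq2 with sex called 7 genes (0.0311%) in the same WT libraries with Gadd45b among them (adjusted p = 0.00996), and without the WT library of discordant sex edgeR gave Gadd45b 0.58 (SE 0.10, adjusted p = 0.0971) and called 0.0172% of genes. Over both genotypes (24 libraries) Gadd45b rose by 0.58 (SE 0.08, adjusted p = 0.000474, edgeR), the second smallest p of 17907 genes, of which 1.05% were called.

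The fall from 1 h to 3 h was nearly as large as the rise. Over both genotypes the log2 fold change of Gadd45b was -0.46 (SE 0.08, adjusted p = 0.0114, edgeR), with 0.486% of genes called. It was the only one of the 10 genes called there. Without the 2 libraries of discordant sex it fell by 0.55 (SE 0.07, adjusted p = 0.000113, edgeR), with 2.09% of genes called. Within a genotype edgeR called 0% of genes between these times, and Gadd45b had log2 fold changes of -0.44 (SE 0.11, adjusted p = 0.413) in WT and -0.49 (SE 0.11, adjusted p = 0.306) in mutants. Unadjusted p-values under 0.05 were held by 1288 genes in WT and 1387 in mutants, and DESeq2 with sex called Gadd45b in both (adjusted p = 0.0465 and 0.0135), along with 0.275% and 0.358% of all genes. Without the mutant 3 h library of discordant sex Gadd45b was called in mutants by edgeR as well, at -0.62 (SE 0.07, adjusted p = 0.00441), where the share of all genes called went from 0% to 0.104%. Against naive mice, Gadd45b at 3 h had log2 fold changes of 0.09 (SE 0.12) in WT and 0.14 (SE 0.13) in mutants, neither called by edgeR (adjusted p = 0.919 and 0.838). Without mutant 3 h female 2 the mutant value was 0.02 (SE 0.11). Between 0 h and 3 h edgeR called no gene in either genotype (0%), with 1436 and 1481 genes at an unadjusted p under 0.05. DESeq2 with sex called 0.275% in WT and 0.566% in mutants, none of them among the 10 genes. By edgeR, over both genotypes 1.57% were called and none of them was among the 10 genes.

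Gadd45g, the paralog with the highest level, moved less and with more overlap. In WT mice its level ran from 11.3 to 18.3 CPM at 0 h (median 13.7), from 14.9 to 20.8 at 1 h (median 17.3) and from 14.5 to 18.8 at 3 h (median 15.8). In mutants it ran from 12.9 to 17.2 at 0 h (median 15.8), from 16.3 to 23.0 at 1 h (median 19.7) and from 13.3 to 28.1 at 3 h (median 15.2). The groups overlapped at every step, although all 12 libraries at 1 h lay above the naive mean of 14.8. Over both genotypes the 1 h rise of Gadd45g came to 0.32 on the log2 scale and was called (adjusted p = 0.0392, SE 0.08, edgeR). Within a genotype it was not called, with 0.30 (SE 0.12, adjusted p = 0.922) in WT and 0.35 (SE 0.09, adjusted p = 0.157) in mutants by edgeR, while DESeq2 with sex called it in mutants (adjusted p = 0.0266), where it called 1.63% of all genes. The pooled call was not firm: it was lost (adjusted p from 0.0536 to 0.0818) when 1 library was left out in 17 of 24 cases. It stayed without WT 0 h male 2, WT 0 h female 2, mutant 0 h male 1, mutant 0 h female 2, WT 1 h male 1, WT 1 h female 2 or mutant 1 h male 3. From 1 h to 3 h its pooled log2 fold change was -0.14 (SE 0.10, adjusted p = 0.639, edgeR) with all libraries and -0.27 (SE 0.06, adjusted p = 0.0213) without the 2 of discordant sex. The highest level of all, 28.1 CPM, was in the mutant 3 h library of discordant sex, and the other 5 of that group reached at most 17.5.

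**Figure D3:**
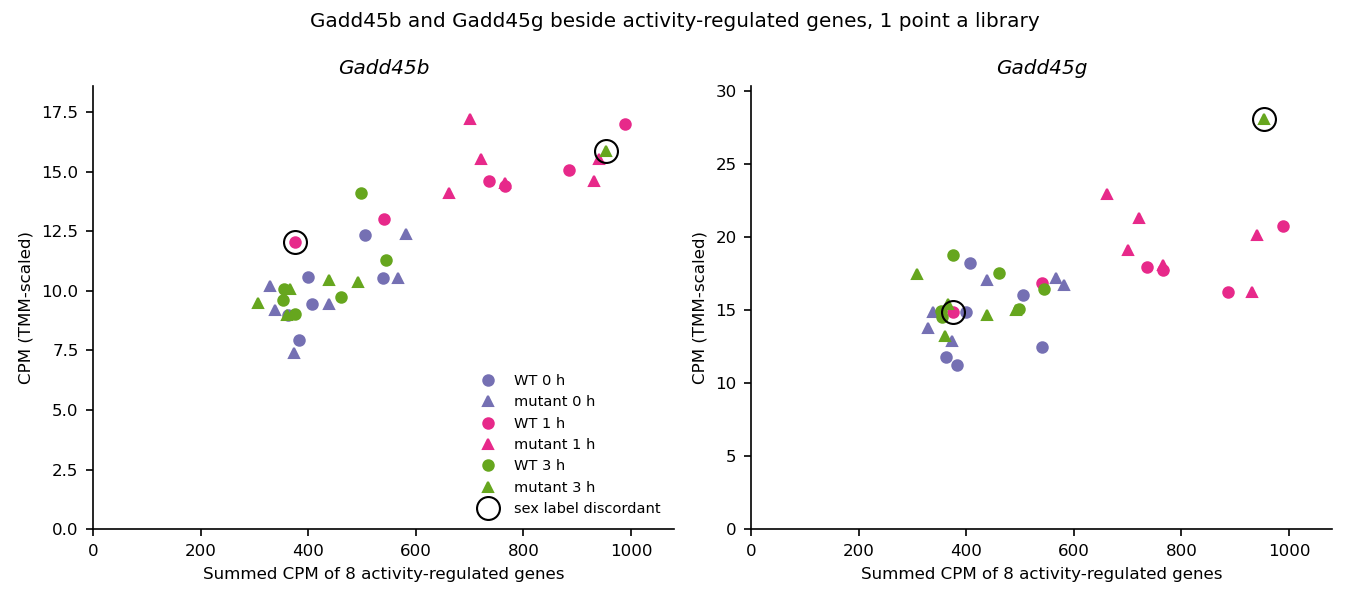
CPM of Gadd45b and Gadd45g against the summed CPM of 8 activity-regulated genes, 1 point per library, coloured by time, with circles for WT, triangles for mutants and rings around the 2 libraries of discordant sex label. The ringed WT 1 h library lies among the naive and 3 h points at 375.7 CPM. By summed activity level the ringed mutant 3 h library lies among the 1 h points, at 954 CPM. In the Gadd45g panel it lies above all 1 h points, at 28.1 CPM against at most 23.0.

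Gadd45a was the least abundant of the family, resting on 86 to 302 counts per library, and was called at no step. Its mean was 2.58 ± 0.457, 2.42 ± 0.595 and 2.48 ± 0.396 CPM at 0, 1 and 3 h in WT, and 2.29 ± 0.529, 2.52 ± 0.214 and 2.04 ± 0.387 in mutants (SD, n = 6). The ranges overlapped at every time, and with all libraries no comparison gave an unadjusted p under 0.05. In mutants at 3 h against 1 h the log2 fold change was -0.30 (SE 0.14, unadjusted p = 0.0568, edgeR). Without mutant 3 h female 2 it was -0.35 (SE 0.15, unadjusted p = 0.0359, adjusted p = 0.509, edgeR). At 1 h against 0 h over both genotypes its log2 fold change was 0.01 (SE 0.11), beside 0.58 for Gadd45b and 0.32 for Gadd45g in the same 24 libraries. An antisense transcript, E230016M11Rik, overlaps Gadd45a, and how the counting treated strand is not given in the sources used here.

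**Figure D4:**
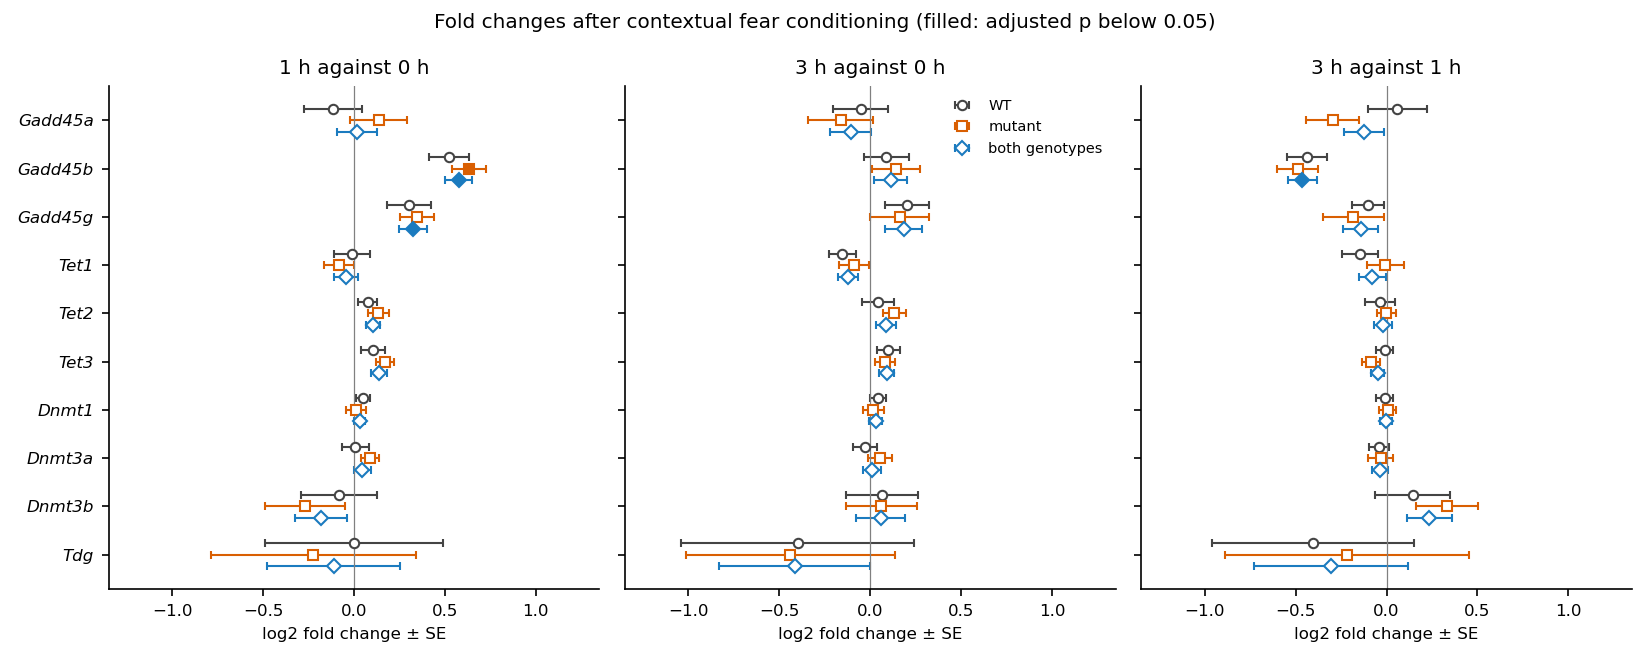
Log2 fold change ± SE between times for each gene, in WT (circles), mutants (squares) and both genotypes together (diamonds), with filled symbols where the adjusted p was under 0.05. Filled symbols stand at Gadd45b (1 h against 0 h in mutants and in both genotypes, 3 h against 1 h in both genotypes) and at Gadd45g (1 h against 0 h in both genotypes), and the widest error bars are those of Tdg.

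The Tet genes differed by small amounts between times, and edgeR with all libraries called none of them. Tet3, the most abundant dioxygenase of the family here, ran from 70.9 to 94.9 CPM in naive WT (median 82.8) and from 80.4 to 95.2 at 1 h (median 88.6). In mutants it ran from 73.3 to 88.9 at 0 h (median 82.5) and from 86.0 to 96.4 at 1 h (median 93.1). Of the 12 libraries at 1 h, 11 lay above the naive mean, but the ranges overlapped in both genotypes. Its log2 fold change over both genotypes was 0.14 (SE 0.04, unadjusted p = 0.00302, adjusted p = 0.123, edgeR), and without WT 0 h male 2 the adjusted p was 0.0335, with 1.5% of genes called. In mutants alone the 1 h value was 0.17 (SE 0.05, adjusted p = 0.167, edgeR), and DESeq2 with sex called it (adjusted p = 0.0489). At 3 h the pooled value against naive mice was 0.09 (SE 0.04, unadjusted p = 0.0447, adjusted p = 0.314, edgeR). Without mutant 3 h female 2 it was 0.08 (SE 0.04, unadjusted p = 0.0764, edgeR).

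Tet2 had means of 41.8 ± 2.96, 44.2 ± 2.03 and 43.2 ± 6.99 CPM at 0, 1 and 3 h in WT, and 42.8 ± 3.76, 47.0 ± 2.71 and 46.9 ± 3.19 in mutants (SD, n = 6). Its pooled log2 fold change at 1 h was 0.10 (SE 0.04, unadjusted p = 0.0151, adjusted p = 0.251, edgeR). Tet1, the least abundant of the 3 per kilobase, had means of 17.5 ± 1.59, 17.5 ± 2.78 and 15.8 ± 1.17 CPM in WT, and 18.5 ± 1.46, 17.5 ± 2.22 and 17.4 ± 2.35 in mutants. Its pooled value at 3 h against 0 h was -0.12 (SE 0.06, unadjusted p = 0.0400, adjusted p = 0.299, edgeR), the opposite sign to Tet3 at the same time. Without mutant 3 h female 2 the Tet1 value was -0.135 (SE 0.06, unadjusted p = 0.0269, adjusted p = 0.225, edgeR). In the pooled 1 h comparison 4 of the 10 genes (Gadd45b, Gadd45g, Tet2 and Tet3) had an unadjusted p under 0.05, all with higher values at 1 h, beside 12.8% of all genes tested. The median log2 fold change of the 10 genes was 0.04, and that of all genes -0.01.

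The methyltransferase genes showed no change that the tests could separate from the spread between mice. Dnmt1 had means of 54.7 ± 1.71, 56.7 ± 2.48 and 56.3 ± 3.60 CPM at 0, 1 and 3 h in WT and 57.2 ± 4.56, 57.7 ± 2.74 and 57.8 ± 3.43 in mutants (SD, n = 6). Its pooled log2 fold changes were 0.03 (SE 0.03) at 1 h and 0.03 (SE 0.04) at 3 h against naive mice. Dnmt3a, which had the highest CPM of the 10 genes, had means of 95.4 ± 11.4, 96.0 ± 6.26 and 93.4 ± 6.78 in WT and 93.5 ± 4.32, 99.4 ± 7.12 and 97.0 ± 10.9 in mutants, and its pooled values were 0.05 (SE 0.05) and 0.01 (SE 0.05). Its highest library was mutant 3 h female 2, at 118.0 CPM, where the other 5 of the group reached at most 97.0. That library also held the highest summed level of the 5 oligodendrocyte markers, 10060 CPM, and the part of that in the Dnmt3a value was not tested.

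Dnmt3b was near the limit of what these libraries measure. It had 38 to 118 counts per library and means from 0.937 ± 0.169 CPM (mutant, 1 h) to 1.18 ± 0.101 (mutant, 3 h). Its pooled log2 fold change from 1 h to 3 h was 0.24 (SE 0.12, adjusted p = 0.499, edgeR), the largest of the Dnmt genes, and 10 of the 12 libraries at 3 h were above the 1 h mean. Antisense transcripts are annotated over both Dnmt3a (Dnmt3aos) and Dnmt3b (Dnmt3bos).

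Tdg stood apart from the other genes by its spread. Its level ran from 3.84 to 30.3 CPM, and the libraries fell into 3 ranges with gaps between them. In 14 libraries it was between 3.84 and 5.67 CPM, in 16 between 14.5 and 17.8, and in 6 between 22.9 and 30.3. The ranges did not follow the groups: the lowest held 2, 1 and 4 WT libraries at 0, 1 and 3 h and 1, 3 and 3 mutant libraries, and the middle range held 3, 5 and 1 WT and 4, 1 and 2 mutant libraries. The highest range held 1 WT library at 0 h and 1 at 3 h, with 1, 2 and 1 mutant libraries at 0, 1 and 3 h, and no WT library at 1 h. The counts of Tdg-ps2, an annotated Tdg pseudogene (chr10:42052558-42055453), ran the other way. It held 1790 to 3574 counts (31.1 to 37.7 CPM) in the 14 libraries with the lowest Tdg level, 720 to 1548 counts in the 16 of the middle range and 38 to 70 counts (0.577 to 1.103 CPM) in the 6 with the highest.

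**Figure D5:**
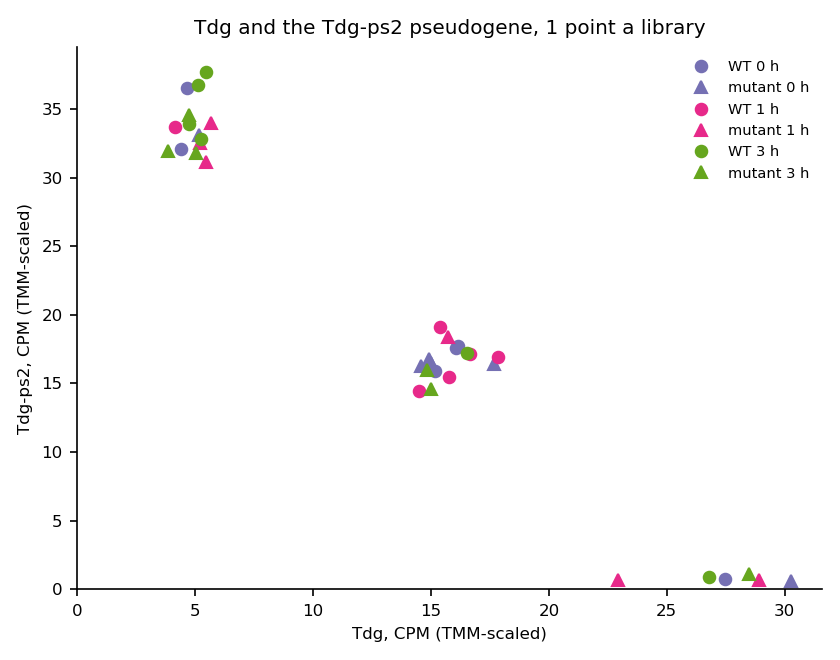
CPM of the Tdg-ps2 pseudogene against CPM of Tdg, 1 point per library, coloured by time, with circles for WT and triangles for mutants. The 36 libraries form 3 separate clouds, each with both genotypes, from 14 at upper left (Tdg 3.84 to 5.67 CPM) through 16 in the middle to 6 at lower right (Tdg 22.9 to 30.3 CPM).

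The summed level of Tdg, Tdg-ps2 and Tdg-ps, another copy (chr15:82516295-82519242), varied less than Tdg alone, from 23.98 to 43.2 CPM over the libraries. It was highest (35.8 to 43.2 CPM) in the libraries of the lowest Tdg range. All 36 counts of Tdg-ps2 and all 36 of Tdg-ps were even numbers, against 17 of 36 for Tdg. Tdg (chr10:82629814-82650799) and Tdg-ps2 lie on the same chromosome, and whether reads of one were assigned to the other, and whether the strain mixture of the cross moved with these ranges, was not tested. No time comparison of Tdg alone gave an unadjusted p under 0.05, with SEs from 0.36 to 0.67 on the log2 scale. With the 3 copies summed before the fit, a choice made after seeing the data, the log2 fold changes over both genotypes were -0.0050 (SE 0.07) at 1 h and 0.07 (SE 0.07) at 3 h against naive mice, and edgeR called none of the 16 comparisons of the sum, the smallest unadjusted p being 0.148.

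The second question was whether these genes differed between genotypes. At 0 h, 1 h and 3 h edgeR called none of the 10 genes, none had an unadjusted p under 0.05, and DESeq2 with or without sex called none. The share of all genes called was 0% at 0 h, 0% at 1 h and 0.0115% at 3 h, with 1066, 1487 and 1107 genes at an unadjusted p under 0.05. DESeq2 with sex called 0.071%, 0.445% and 0.227% of genes. Without the discordant library of that time edgeR called 0.236% of genes at 1 h and 0.103% at 3 h, and again none of the 10 genes. Over all times (36 libraries) 1.3% of genes were called and again none of the 10 genes, the smallest unadjusted p being 0.0529 for Tet2 (log2 fold change 0.08, SE 0.04, adjusted p = 0.334, edgeR). Gadd45b had a log2 fold change of 0.03 (SE 0.07) between mutant and WT over all times, Gadd45g 0.13 (SE 0.08) and Gadd45a -0.13 (SE 0.09). Without the 2 libraries of discordant sex Gadd45b was at -0.03 (SE 0.06) and Gadd45g at 0.05 (SE 0.06). Tet2 was then at 0.07 (SE 0.04, unadjusted p = 0.0998, edgeR). The smallest unadjusted p of the 10 genes was then that of Gadd45a (-0.17, SE 0.09, unadjusted p = 0.0770, edgeR). At 3 h alone Gadd45a was at -0.28 (SE 0.16) with all libraries and at -0.35 (SE 0.16, unadjusted p = 0.0538, edgeR) without them. Dnmt1 was at 0.04 (SE 0.03), Dnmt3a at 0.03 (SE 0.04) and Tet3 at 0.02 (SE 0.03). In 9 of the 10 genes the all-times value was above 0, beside 9145 of all 18186 genes tested. The median of the 10 was 0.04 beside 0.0005 for all genes. Without the 2 libraries of discordant sex 7 of the 10 were above 0, with Gadd45b and Dnmt3a (-0.0007) turning below it, and Tdg summed with its copies was at -0.07 (SE 0.06) with all libraries.

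Whether training moved a gene by a different amount in mutants than in WT was tested with an interaction term, fitted to 24 libraries per pair of times, and edgeR called 0% of genes for each of the 3 pairs. With all libraries none of the 10 genes had an unadjusted p under 0.05. For Gadd45b the mutant rise at 1 h exceeded the WT rise by 0.10 on the log2 scale (SE 0.15, unadjusted p = 0.505, edgeR). Its call in mutants with none in WT thus came without a called difference between genotypes. Without WT 1 h male 1 the excess was 0.06 (SE 0.15). For Gadd45g the corresponding value was 0.05 (SE 0.16), and 0.01 (SE 0.16) without that library, for Tet3 0.06 (SE 0.08) and for Tet2 0.06 (SE 0.08). The smallest unadjusted p of the 10 genes was 0.119, for Gadd45a between 1 h and 3 h (-0.34, SE 0.21). Between these times the Gadd45g value was -0.08 (SE 0.19, unadjusted p = 0.693, edgeR) with all libraries. It was -0.23 (SE 0.12, unadjusted p = 0.0617, adjusted p = 0.9996, edgeR) without the 2 of discordant sex. Without mutant 3 h female 2 alone it was -0.28 (unadjusted p = 0.0336, adjusted p = 0.999, edgeR). The 3 interaction tests had 677, 273 and 801 genes at an unadjusted p under 0.05, and DESeq2 called none of the 10 genes in them.

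Other genes of the pathway were taken from lists of methylation maintenance (8 genes), methyl-CpG readers (8), TET cofactors and regulators (6), base excision repair (16) and Gadd45 partners (11), with Bdnf and Fgf1 as growth factor genes linked to Gadd45b. In the main edgeR fits no gene of these lists was called in any of the 16 comparisons. Without the 2 libraries of discordant sex edgeR called Idh1, Parp1 and Map3k4 at 3 h against 0 h over both genotypes (2.93% of all genes). At 1 h against 0 h it then called Cxxc4 (1.99%). With sex and replicate number as a block it called Idh1, Parp1 and Map3k4 at 3 h (2.52%) and Parp1 at 1 h (1.21%). A single fit of all 36 libraries called Parp1 and Map3k4 at 3 h (2.39%). In the pooled 3 h against 0 h comparison edgeR left Idh1, Map3k4 and Parp1 just outside the threshold, and DESeq2 with sex called 5 list genes (Idh1, Cxxc4, Parp1, Pcna and Map3k4), where it called 3.14% of all genes. Parp1, which detects DNA strand breaks in base excision repair, had means of 140.3 ± 17.96 CPM at 0 h and 162.0 ± 7.97 at 3 h in WT and 145.3 ± 20.6 and 173.5 ± 21.4 in mutants (SD, n = 6), a pooled log2 fold change of 0.23 (SE 0.06, adjusted p = 0.0657, edgeR). Map3k4, the kinase that GADD45 proteins bind, had a pooled value of 0.16 (SE 0.05, adjusted p = 0.0627, edgeR). Idh1, which makes the 2-oxoglutarate that TET enzymes use, had -0.15 (SE 0.04, adjusted p = 0.0582, edgeR), and Pcna, the replication and repair clamp, -0.35 (SE 0.11, adjusted p = 0.0898). Cxxc4, a negative regulator of TET2, had a 3 h value of -0.21 (SE 0.07, adjusted p = 0.102, edgeR). Its 1 h value was -0.26 (SE 0.08, adjusted p = 0.130, edgeR).

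Within the lists, the median log2 fold change at 1 h over both genotypes was between -0.04 (TET cofactors and regulators) and 0.03 (Gadd45 partners), beside -0.01 for all genes. Unadjusted p-values under 0.05 at 1 h were held by 4 of the 11 Gadd45 partners, all with higher values, beside 12.8% of all genes. Among them were Taf12 (0.16, SE 0.05, adjusted p = 0.131) and Map3k4 (0.12, SE 0.05, adjusted p = 0.234). Bdnf had a pooled log2 fold change of 0.10 (SE 0.05, adjusted p = 0.447, edgeR) at 1 h and Fgf1 -0.07 (SE 0.06, adjusted p = 0.647). The 8 activity-regulated genes were all called and higher at 1 h over both genotypes, where 1.05% of all genes were called. Fosb was at 1.36 (SE 0.11, adjusted p = 1.54e-07, edgeR). These 8 genes were chosen with earlier results of these data known, so their calls are no independent check of the training. The log2 fold change of Gadd45b (0.58) was smaller than that of 7 of these 8 genes, Egr3 (0.41) being the exception.

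Likeness of course over the 36 libraries was measured as Pearson's r of log2 CPM among the 14577 genes with a mean of at least 1 CPM, and as a description only, since libraries share time and tissue composition. Gadd45b was most like Junb (r = 0.891), Fos (r = 0.888) and Arc (r = 0.856), and with the group means removed these were 0.783, 0.784 and 0.771. Over the 34 libraries without the 2 of discordant sex the latter were 0.674, 0.670 and 0.645. Gadd45g was most like Ddit4 (r = 0.825), Tob2 (0.815) and Txnip (0.793), a different set from that of Gadd45b. Gadd45a was most like Smyd2 (0.680), Ccdc184 (0.664) and Ctnnbip1 (0.649). Tet1 was most like Rab7b (0.741), Rev3l (0.732) and Dcx (0.728), Tet2 like Znfx1 (0.755), Frmd4a (0.730) and Usp53 (0.713), and Tet3 like Ppargc1b (0.697), Mn1 (0.659) and Slx4 (0.656). Dnmt1 was most like Atp1b2 (0.697), Zscan26 (0.674) and Nup188 (0.652), and Dnmt3b like Catsper2 (0.632), Setd1a (0.601) and Stk38 (0.554). Dnmt3a was most like Cilk1 (0.753), Cep43 (0.727) and Mog (0.717), the last an oligodendrocyte myelin gene. Tdg was most like Cep83os (0.886), 1190007I07Rik (0.825) and Ikbke (0.686), values that rest on libraries in separate ranges. Cep83os and 1190007I07Rik lie on chromosome 10, as Tdg does, and Ikbke lies on chromosome 1. Among the 10 genes the highest r within groups was 0.618, between Tet3 and Dnmt3a, and that of Gadd45b with Gadd45g was 0.561. Over the 34 libraries without those of discordant sex these were 0.597 and 0.306.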

How the data were processed

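Poly-A RNA of dorsal hippocampus was sequenced in paired ends by the authors, 1 library per mouse. The deposited files hold raw read counts per Entrez gene, which the authors made with RNA STAR and featureCounts on mm10 (per the labels, STAR 2.7.8a and featureCounts 2.0.1). The gene annotation, the strand setting and the treatment of reads with several matches are not given in the sources used here.

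Counts were tested with edgeR 4.0.16 in R 4.3.3 (trimmed mean of M values, filterByExpr with a minimum count of 10, robust quasi-likelihood F test), with sex as a covariate, in 16 comparisons fitted to the libraries each compares. P-values were adjusted by the Benjamini-Hochberg method over all genes tested and calls made at 0.05. The standard error is the absolute log2 fold change divided by the square root of F. Depth was 40274435 to 107000233 counts per library. Genes without a name held 1.284% of counts. Exon lengths came from GENCODE M21 (GRCm38) and promoters from RefSeq. Likeness used log2 CPM with a prior count of 2.

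Named genes were the 10 members, up to 2 genes per pathway list with the smallest p plus any called, and the 3 genes of highest r for each member. Members and lists were chosen with earlier results of these data known. A further pathway list is not reported here. The alternatives tried were RLE factors, DESeq2 1.42.0 (with sex or with no covariate), edgeR with no filter or without sex, a single fit of all 36 libraries, a replicate block, and leaving out single libraries. Leaving out both libraries of discordant sex (fits and likeness), and summing Tdg with its copies, were added after seeing the data.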

Additional observations from a re-analysis of the deposited data

Results flagged for a closer look

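In 6 of the 60 sets of 6 libraries (10 genes in 6 groups) 1 library lay further from the other 5 than Dixon's 95% limit allows, where chance gives about 1 in 20. Of these, 3 are in mutant 3 h female 2, whose transcripts go against its sex label: Gadd45b at 15.89 CPM (the others 8.98 to 10.4), Gadd45g at 28.12 CPM (13.3 to 17.5) and Dnmt3a at 118.0 CPM (86.7 to 97.0). Tet1 was at 21.67 CPM in mutant 1 h male 1, where the others ran from 15.3 to 17.7. Tet2 was at 35.98 CPM in WT 0 h female 3, below the others at 41.5 to 43.9. Tdg was at 4.154 CPM in WT 1 h male 3, the only library of that group in the lowest of the 3 Tdg ranges (the others 14.5 to 17.8). With all libraries no interaction of genotype and time passed the test for these genes.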

How the results depend on the processing

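RLE factors, no filter and no sex covariate left the number of the 10 genes called as it was in all 16 comparisons. DESeq2, with and without sex, called 1 gene (Gadd45b) in WT at 1 h against 0 h in place of 0, 3 genes (Gadd45b, Gadd45g and Tet3) in mutants at 1 h against 0 h in place of 1, and 1 gene (Gadd45b) in mutants at 3 h against 1 h in place of 0. DESeq2 with sex also called 1 gene (Gadd45b) in WT at 3 h against 1 h. With all 36 libraries in one fit, 1 gene in place of 2 was called at 1 h against 0 h over both genotypes, Gadd45g being lost (adjusted p = 0.0846, edgeR). Without the 2 libraries of discordant sex, 1 gene (Gadd45b) was called in mutants at 3 h against 1 h, and 2 genes (Gadd45b and Gadd45g) in place of 1 at 3 h against 1 h over both genotypes. With 1 library left out, the count ran from 1 to 3 at 1 h against 0 h over both genotypes and from 0 to 1 in mutants at 3 h against 1 h, the 1 coming without mutant 3 h female 2. The causes of these moves were not tested. Over all genes, DESeq2 with sex called 367 genes in mutants at 1 h against 0 h where edgeR called 54, and 424 in place of 188 over both genotypes. Over both genotypes at 3 h it called 724 in place of 281 against 0 h and 289 in place of 87 against 1 h, and over all times 561 in place of 237 between genotypes. Without the 2 libraries of discordant sex the pooled calls were 359 at 1 h against 0 h, 529 at 3 h against 0 h, 2.09% of genes tested at 3 h against 1 h and 507 between genotypes. Leaving out 1 library also lowered counts: to 79 (without WT 1 h female 3), 142 (without WT 0 h male 1) and 16 (without WT 1 h male 3) over both genotypes at 1 h against 0 h, 3 h against 0 h and 3 h against 1 h, and to 26 in mutants at 1 h (without mutant 0 h male 3). At most it gave 359, 548, 231 and 86. The calls on Gadd45b in mutants and over both genotypes at 1 h held in each fit with 1 library left out (adjusted p up to 0.0369 in mutants, edgeR). No genotype comparison or interaction gave a call for the 10 genes under any alternative. Depth limits Gadd45a and Dnmt3b most, with as few as 86 and 38 counts.

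With sex and replicate number as a replicate block, no call on the 10 genes was lost or gained, and Gadd45b in mutants at 1 h against 0 h had an adjusted p of 0.0243 (edgeR). Pairs of equal sex and number had correlations of deviations from -0.321 to 0.4. In no comparison were all 6 above 0.1, and in mutant against WT at 0 h 4 of the 6 were. The labels give only a number, and these correlations cannot tell whether samples of equal number are related. Over all genes the block called 37 in place of 54 in that mutant comparison, 452 in place of 281 at 3 h against 0 h over both genotypes and 55 in place of 87 at 3 h against 1 h.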
